A study of Mus musculus with 9 samples.

Results

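The genes described here encode collagen chains, laminin chains and named proteins of the basement membranes and of the retinal matrix. They were taken from the deposited table by symbol: every collagen chain of the form Col#a#, every laminin chain of the form Lama#, Lamb# or Lamc#, and Agrn, Nid1, Nid2, Hspg2, Tnc, Tnr, Sparc, Sparcl1, Vcan, Bcan, Ncan, Acan, Hapln1, Impg1 and Impg2. Of 15228 listed genes, 42 met this rule, namely 28 collagens, 6 laminins and 8 of the 15 genes named singly. RNA was sequenced from cells sorted as retinal ganglion cells (RGCs) of wild-type (WT) C57BL/6J mice, young adults per the study's methods, in 3 groups of 3 libraries. Ctrl cells came from normal, intact retinas. ONC cells came from retinas whose optic nerve had been crushed and whose eye had received PBS, and TPEN cells from crushed retinas whose eye had received TPEN, a chelator of zinc. The retinas of both crushed groups were dissected 3 days after the injury, so Ctrl differs from ONC in both the crush and the injection. Cells were gated on surface antigens, with CD90.2 as the antigen required, and it is not given in the sources used here if different mice gave the libraries of each group, so p-values measure the spread between libraries, which may in part be technical.

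Basement membranes are thin sheets of matrix on which cells rest. Collagen IV and laminins each form a network in them, and agrin, perlecan (Hspg2) and nidogens tie these networks to each other and to cell receptors. In the retina such sheets form the inner limiting membrane, Bruch's membrane and the sleeve around vessels, while the interphotoreceptor matrix around photoreceptor segments is built on the proteoglycans IMPG1 and IMPG2. Collagen chains work as trimers, so the chains of one type are usually made together.

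Values are reads scaled to exon length and library size (RPKM), and changes are differences of log2(RPKM + 0.1), which understate the change of genes with low levels. They were tested with limma over the 13566 genes whose levels averaged 0.5 RPKM or more, and a member is said here to have risen or fallen where the Benjamini-Hochberg adjusted p was under 0.05. The libraries held 19946993 to 23109754 reads, and 3 reads, the limit that a count of 0 allows, correspond to 0.130 to 0.150 reads per 1000000 reads (RPM), for counting error only. Markers of RGCs were present in part. Of 14 RGC markers, 11 were listed, with a summed level of 310 to 418 RPKM, most of it from the neurofilament gene Nefl. Rbpms, Pou4f1 and Slc17a6 lay below the filter of 0.5 RPKM, and the 9 rod markers summed to between 17505 and 20676 RPKM in a library. The 13 listed microglia and macrophage markers summed to 9.83 to 10.3 RPKM in Ctrl, 74.5 to 77.9 in ONC and 37.6 to 40.4 in TPEN. In these bulk samples fewer cells of a type and less RNA per cell cannot be told apart.

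The matrix genes covered more than 3 orders of magnitude. Impg1, the photoreceptor matrix proteoglycan, had the highest mean, 172.5 RPKM over the 9 libraries, and ranked 217 of 15228 genes. Impg2 followed at 61.6 RPKM, then Sparc at 18.3, Sparcl1 at 16.3 and Col7a1, the collagen of anchoring fibrils, at 15.1 RPKM. Col20a1, a fibril-associated collagen, had a mean of 9.49 RPKM and the transmembrane collagen Col23a1 one of 5.03 RPKM. No other member reached a mean of 5 RPKM over the 9 libraries, and perlecan, one of the core proteins of basement membranes, had the lowest, 0.0557 RPKM. The median of the member means was 1.03 RPKM, and 26 members passed the filter, with a median of 2.61 RPKM against 5.08 RPKM for all genes tested. The 16 members below the filter were Col4a6, Col6a2, Col11a1, Col12a1, Col15a1, Col16a1, Col17a1, Col22a1, Col27a1, Lama1, Lama3, Lama5, Lamb1, Hspg2, Ncan and Tnr. None of the 42 was at 0 in any library, and the fewest reads of a member in a library were 4. The chains of collagens I and III, Col5a2, Col6a3, Lama2, Lama4, both nidogens, Tnc, Vcan, Bcan, Acan and Hapln1 are among the genes not analysed here. Every gene of the deposited table exceeded 1 RPM in at least 2 libraries.

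**Figure D1:**
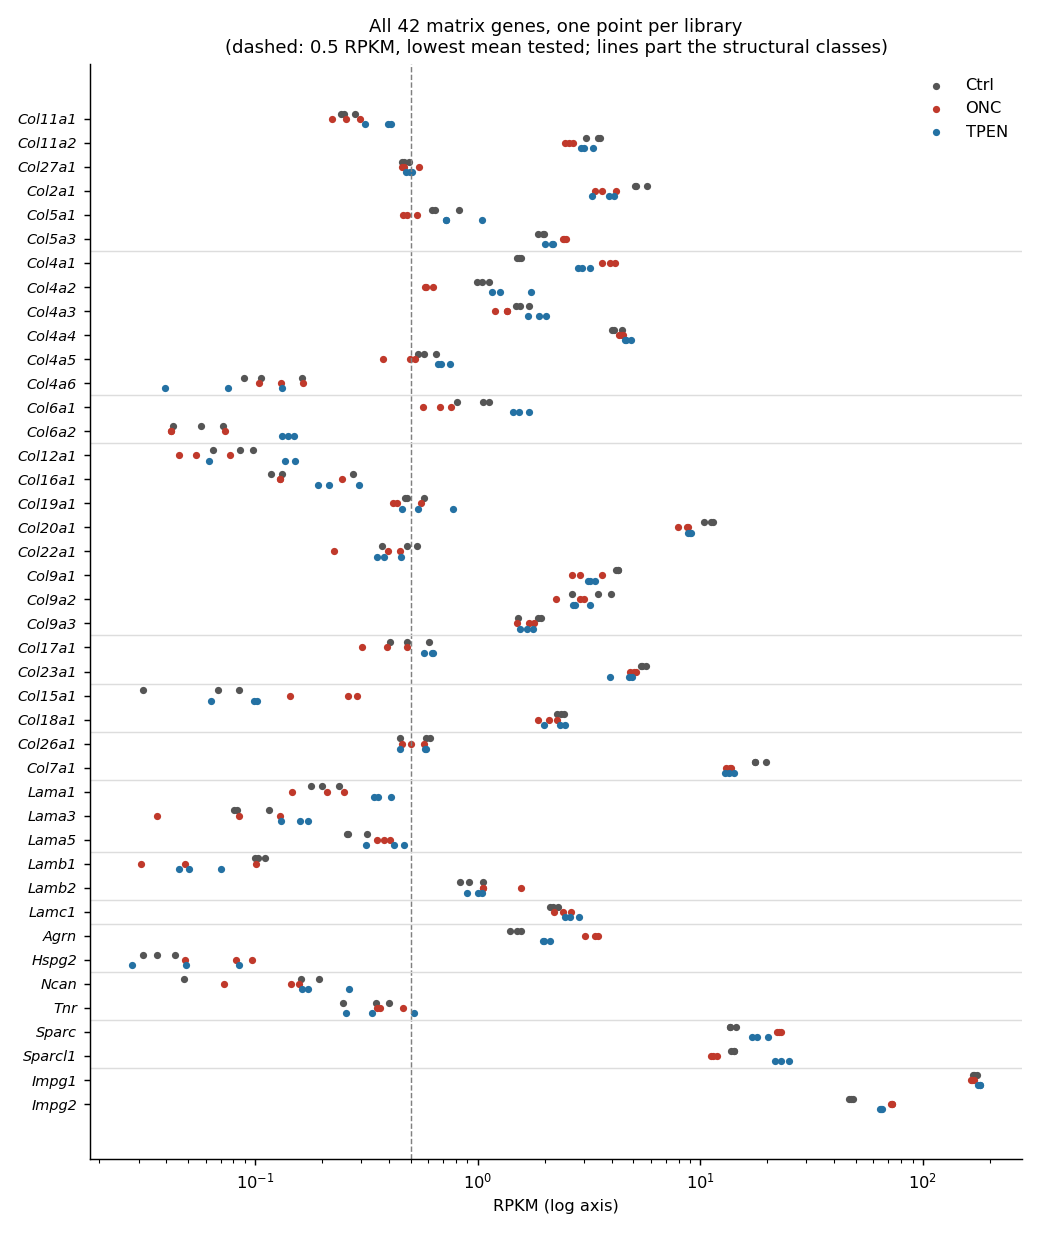
Level of each of the 42 matrix genes in RPKM on a log axis, 1 point per library, coloured by group, with the genes ordered by structural class and a dashed line at 0.5 RPKM, the lowest mean that was tested. Impg1 and Impg2 lie highest, perlecan (Hspg2) lowest, and the 16 genes that were not tested have means to the left of the dashed line.

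After the crush, the matrix genes moved in both directions, and 13 of the 26 tested changed. In ONC/Ctrl, 5 members rose (19.2%; 11.7% of all genes tested rose), namely Col4a1, Agrn, Sparc, Impg2 and Col5a3. At a fold change of at least 1.5, the threshold of the study, 4 of them remained, or 15.4% against 4.58% of all genes. Those that fell were Col4a2, Col2a1, Col6a1, Col9a1, Col7a1, Col11a2, Col20a1 and Sparcl1, so 8 of 26 (30.8%) fell against 6.97% of all genes. Of these, 1 fell by at least 1.5-fold, Col4a2, or 3.85% against 0.752% of all genes. The median change of the 26 was -0.16 on the log2 scale, with 8 of them above 0, beside a median of 0.02 and 53.5% above 0 for all genes.

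Between TPEN and ONC, 9 of the 26 changed. In TPEN/ONC, 5 members rose, Col6a1, Col4a2, Sparcl1, Col4a3 and Impg1 (19.2%; 3.24% of all genes rose), and 3 of them by at least 1.5-fold (11.5% against 0.818%). Agrn, Col4a1, Sparc and Impg2 fell (15.4%; 4.14% of all genes fell), with Agrn alone past 1.5-fold (3.85% against 1.21%). The median change was 0.09 with 18 of 26 members above 0, beside -0.01 and 47.0% for all genes. TPEN/ONC uses the same ONC libraries as ONC/Ctrl, so opposite signs in the 2 comparisons can arise from the ONC libraries alone. Relative to Ctrl, 6 members were higher in TPEN (23.1%; 8.36% of all genes), 3 of them by at least 1.5-fold (11.5% against 3.45%). Another 4 were lower (15.4%; 5.01% of all genes), none by 1.5-fold, since the largest decrease was -0.51 (0% against 0.457%). The 15 members that changed in at least 1 comparison are described below. The comparisons share libraries, and no share of all genes was counted beside this number.

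**Figure D2:**
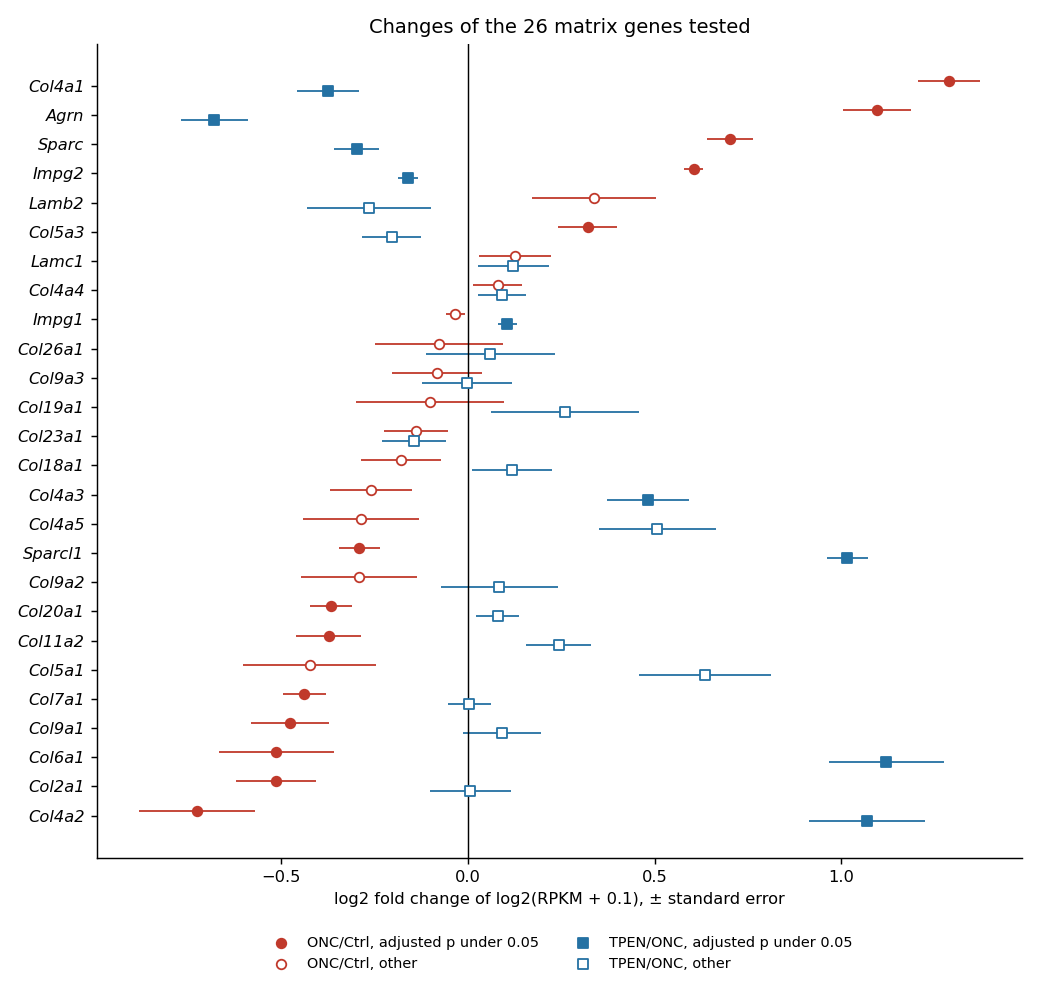
Change of each of the 26 tested matrix genes in ONC/Ctrl (red circles) and TPEN/ONC (blue squares) as the difference of log2(RPKM + 0.1) with its standard error, filled where the limma adjusted p was under 0.05, ordered by the change in ONC/Ctrl. Col4a1 (1.29) and Col4a2 (-0.73) stand at opposite ends for the crush, and Col6a1 (1.12), Col4a2 (1.07) and Sparcl1 (1.02) lie farthest to the right for TPEN.

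The 6 chains of collagen IV did not move together. Col4a1 and Col4a2, whose products form the trimer common to nearly all basement membranes, moved apart after the crush. Col4a1 (chromosome 8, 11198423 to 11312826, minus strand, GRCm38) was at 1.54, 1.57 and 1.50 RPKM in the Ctrl libraries, 4.14, 3.62 and 3.94 in ONC and 2.83, 2.94 and 3.18 in TPEN. The groups did not overlap: ONC was highest in all libraries and TPEN lay between. By limma, ONC exceeded Ctrl by 1.29 (standard error 0.08, adjusted p = 5.07e-06) and TPEN exceeded Ctrl by 0.91 (8.55e-05), while the level fell by 0.38 from ONC to TPEN (adjusted p = 0.0259). Col4a2 (chromosome 8, 11312805 to 11449287, plus strand) was at 1.04, 0.994 and 1.13 RPKM in Ctrl, 0.585, 0.631 and 0.579 in ONC and 1.26, 1.16 and 1.74 in TPEN. Here ONC was the lowest group, again with no overlap with the others. Col4a2 fell by 0.73 in ONC/Ctrl (limma, standard error 0.15, adjusted p = 0.00928) and rose by 1.07 in TPEN/ONC (0.00346), with 0.34 in TPEN/Ctrl (0.19). With 1 RPKM added in place of 0.1, Col4a2 changed by -0.36 after the crush and by 0.57 with TPEN. The decrease of Col4a1 in TPEN/ONC lost its adjusted p under 0.05 without ONC replicate 1 or 3 or TPEN replicate 1 or 2, where it reached up to 0.101.

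Both genes start head to head and share their first 22 bases (chr8:11312805-11312826, GRCm38.p6, RefSeq promoter windows), which lie in the first exon of each. They are shown 5′ to 3′ on the strand of Col4a2, with a GC box (GGGCGG, the core of sites bound by Sp1-type factors) in capitals.
Col4a2 and Col4a1: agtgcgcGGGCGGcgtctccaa
The reads of these 22 bases, 0.295% of the exon length of Col4a1 and 0.332% of that of Col4a2, cannot be told apart unless strand was used in counting; the library kit kept strand, and its use in counting is not given in the sources used here. Within a library, the ratio of the Col4a1 to the Col4a2 level was 1.46 ± 0.123 in Ctrl, 6.54 ± 0.711 in ONC and 2.21 ± 0.359 in TPEN (mean ± SD, n = 3). This pair was set side by side after its values had been seen, so the ratios are a description.

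The other chains of collagen IV moved less. Col4a3 and Col4a4, whose products join Col4a5 in the trimer of specialised membranes such as that of the kidney glomerulus, also start head to head, 71 bases apart on chromosome 1. Col4a3 was at 1.54, 1.49 and 1.71 RPKM in Ctrl, 1.36, 1.36 and 1.19 in ONC and 1.88, 2.03 and 1.69 in TPEN. The ONC libraries were below all others, and Ctrl and TPEN overlapped. Col4a3 rose by 0.48 in TPEN/ONC (limma, standard error 0.11, adjusted p = 0.0288), a call that was lost without any 1 of the ONC libraries or without TPEN replicate 1 or 2 (up to 0.0991), and the change was 0.31 with 1 RPKM added. Col4a4, the chain with the highest mean, was at 3.998, 4.12 and 4.44 RPKM in Ctrl, 4.50, 4.44 and 4.33 in ONC and 4.90, 4.61 and 4.63 in TPEN, and no comparison passed (limma adjusted p of 0.121 to 0.467). The Col4a3 to Col4a4 ratio was 0.377 ± 0.0138 in Ctrl, 0.295 ± 0.0169 in ONC and 0.395 ± 0.0394 in TPEN (SD, n = 3). Exons of Col4a3 share 563 bases, or 5.65% of its length, with the listed gene C430014B12Rik on the other strand. Col4a5 was at 0.588 ± 0.0587, 0.467 ± 0.0795 and 0.700 ± 0.0476 RPKM in Ctrl, ONC and TPEN, with a TPEN/ONC change of 0.51 that missed the threshold (limma adjusted p = 0.0889). Col4a6, its neighbour on the X chromosome, was below the filter with 7 to 30 reads in a library.

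**Figure D3:**
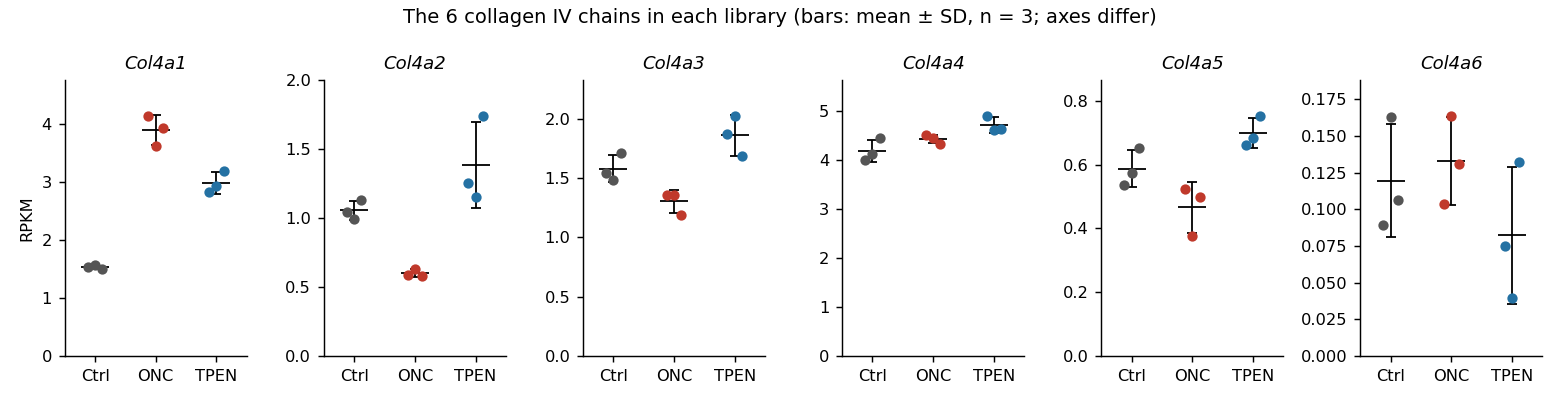
Level in RPKM of the 6 collagen IV chains in each library (points) with the mean and SD of each group (n = 3), each panel with its own axis from 0. Col4a1 is highest in ONC at 3.62 to 4.14 RPKM, while Col4a2 is lowest there at 0.579 to 0.631 RPKM.

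Among the other genes of basement membranes, agrin rose after the crush. The only laminin chains tested, Lamc1 and Lamb2, did not pass, and the others lay below the filter. Agrn (chromosome 4, 156165290 to 156197488, minus strand) encodes a heparan sulfate proteoglycan that binds laminins and dystroglycan and, in its neural form, clusters acetylcholine receptors at the neuromuscular junction. It was at 1.57, 1.39 and 1.51 RPKM in Ctrl, 3.05, 3.48 and 3.38 in ONC and 2.11, 1.96 and 1.99 in TPEN. As for Col4a1, ONC was highest and TPEN lay between, with no overlap. The rise was 1.10 in ONC/Ctrl (limma, standard error 0.09, adjusted p = 2.47e-05), and the level fell by 0.68 in TPEN/ONC (0.00221). In TPEN/Ctrl the change was 0.42 (limma adjusted p = 0.0141), a call lost without Ctrl replicate 2 or TPEN replicate 1 (0.0508 and 0.0510). Isoforms with and without the neural exons cannot be told apart in values per gene. The summed level of the microglia and macrophage markers was ordered like Agrn and Col4a1 (74.5 to 77.9 RPKM in ONC, 37.6 to 40.4 in TPEN, 9.83 to 10.3 in Ctrl; none of the 13 was at 0 in all libraries). So was that of the 4 listed astrocyte markers (27.3 to 28.4, 17.4 to 20.2 and 5.64 to 6.33 RPKM), most of it from Gfap at means of 22.2, 14.4 and 2.79 RPKM, while S100b did not pass and Pdgfra was below the filter. Their part in these changes was not tested.

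The 250 bases before the start of Agrn (chr4:156197489-156197738, minus strand, GRCm38.p6, RefSeq) are shown with GC boxes in capitals (GGGCGG on either strand, so CCGCCC where it lies on the other), since this stretch held 12 of them and was 83.6% G or C, beside a median of 52.4% over all promoters.
Agrn: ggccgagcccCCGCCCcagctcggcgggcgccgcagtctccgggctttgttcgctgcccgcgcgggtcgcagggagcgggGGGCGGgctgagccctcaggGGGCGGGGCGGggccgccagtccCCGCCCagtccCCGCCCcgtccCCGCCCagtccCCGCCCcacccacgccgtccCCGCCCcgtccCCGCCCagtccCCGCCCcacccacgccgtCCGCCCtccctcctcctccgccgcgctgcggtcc
A pair of the 12 overlap by a single base. In windows of 300 bases, 250 before to 50 after each start, GGGCGG was found in 11714 of 32851 promoters of all genes (35.7%) and in 22 of the 36 windows of the 32 members that had one (61.1%). A match in these letters is a description of the sequence and not a bound site.

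Of the laminin chains, Lamc1, the gamma chain of most laminins, had the highest mean, 2.42 RPKM. It was at 2.12, 2.19 and 2.31 RPKM in Ctrl, 2.43, 2.64 and 2.20 in ONC and 2.47, 2.85 and 2.59 in TPEN. Ctrl and ONC overlapped, as did ONC and TPEN, and the TPEN/Ctrl change of 0.25 did not pass (limma adjusted p = 0.127). Lamb2, the beta chain of synaptic and vascular laminins, was at 0.836, 0.911 and 1.06 RPKM in Ctrl, 1.56, 1.05 and 1.05 in ONC and 1.004, 1.05 and 0.899 in TPEN. ONC replicate 1 stood above the other 8 libraries, and no comparison passed (limma adjusted p of 0.204 to 0.834). The alpha chains Lama1, Lama3 and Lama5 and the beta chain Lamb1 were all below the filter, at means of 0.259, 0.110, 0.353 and 0.0734 RPKM. Lama5, the alpha chain with the highest mean, was at 0.262, 0.319 and 0.258 RPKM in Ctrl, 0.351, 0.379 and 0.405 in ONC and 0.422, 0.316 and 0.467 in TPEN. ONC did not overlap with Ctrl, and in a fit without the filter the change was 0.33 (limma adjusted p = 0.189). Lama1, the alpha chain of early and retinal basement membranes, was at 0.239, 0.200 and 0.178 RPKM in Ctrl, 0.146, 0.252 and 0.210 in ONC and 0.358, 0.407 and 0.342 in TPEN. All TPEN libraries were above the others, at 65 to 86 reads against 32 to 55. In that fit, Lama1 rose by 0.62 in TPEN/Ctrl (limma adjusted p = 0.0431) and was 0.64 higher in TPEN/ONC (0.0544). Perlecan had 8 to 32 reads in a library and did not pass there (limma adjusted p of 0.247 to 0.668).

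Collagen VI, which forms beaded filaments next to basement membranes, was represented by Col6a1 and Col6a2. Col6a1 (chromosome 10, 76708792 to 76726168, minus strand) was at 1.12, 0.810 and 1.06 RPKM in Ctrl, 0.675, 0.756 and 0.567 in ONC and 1.44, 1.53 and 1.71 in TPEN. The 3 groups did not overlap, with ONC lowest and TPEN highest. It rose by 1.12 in TPEN/ONC (limma, standard error 0.15, adjusted p = 0.00267), a change of 2.34-fold in the mean level. The ONC/Ctrl decrease of 0.51 (limma adjusted p = 0.0454) passed narrowly and was lost without any 1 of 7 libraries, all but Ctrl replicate 2 and ONC replicate 2 (up to 0.143). The TPEN/Ctrl rise of 0.61 (0.0293) was lost without any TPEN library or without Ctrl replicate 2 or 3 (up to 0.0977). With 1 RPKM added, the Col6a1 changes were -0.26, 0.62 and 0.36 in ONC/Ctrl, TPEN/ONC and TPEN/Ctrl. Col6a2 lay far lower, at 8 to 14 reads in each Ctrl and ONC library and 22 to 26 in TPEN. It exceeded 1 RPM only in the 3 TPEN libraries, so it is in the deposited table through the group where it was high, and no test is given.

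Col2a1 and Col9a1, chains of the collagens of cartilage and vitreous, were lower in both crushed groups. Collagens II, IX and XI make the heterotypic fibrils of these tissues, with Col2a1 as the main fibril chain. Col2a1 (chromosome 15, 97975602 to 98004695, minus strand) was at 5.11, 5.15 and 5.79 RPKM in Ctrl, 3.60, 4.19 and 3.38 in ONC and 3.88, 3.26 and 4.09 in TPEN. Every Ctrl library was above every other, and ONC and TPEN overlapped. Col2a1 fell by 0.51 in ONC/Ctrl (limma, standard error 0.11, adjusted p = 0.00843) and by 0.51 in TPEN/Ctrl (0.0126), with 0.01 in TPEN/ONC (0.985).

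Col9a1, which coats the surface of collagen II fibrils, showed the same order of groups. Its levels were 4.26, 4.20 and 4.28 RPKM in Ctrl, 3.60, 2.88 and 2.66 in ONC and 3.20, 3.12 and 3.36 in TPEN. The Ctrl libraries again stood above all the others. Col9a1 fell by 0.48 in ONC/Ctrl (limma adjusted p = 0.0104) and by 0.39 in TPEN/Ctrl (0.0373), the latter lost without any 1 of 7 libraries, all but ONC replicates 1 and 3 (up to 0.103). Its partner chains in the collagen IX trimer did not pass, with ONC/Ctrl changes of -0.29 for Col9a2 (0.237) and -0.08 for Col9a3 (0.691). Col11a2, a chain inside those fibrils, was at 3.56, 3.06 and 3.46 RPKM in Ctrl, 2.46, 2.68 and 2.57 in ONC and 3.29, 2.99 and 2.90 in TPEN. ONC lay below both other groups, which overlapped. It fell by 0.37 in ONC/Ctrl (limma adjusted p = 0.0146), a call lost without Ctrl replicate 1 or ONC replicate 1 (0.0589 and 0.0555). Col11a1 was below the filter at 0.297 RPKM.

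Col7a1 and Col20a1, the collagens with the highest means, were lower after the crush with and without TPEN. Col7a1 (chromosome 9, 108953586 to 108984875, plus strand) was at 17.5, 17.7 and 19.8 RPKM in Ctrl, 13.6, 13.8 and 13.0 in ONC and 14.1, 13.5 and 13.0 in TPEN, from 2663 to 4201 reads. Ctrl did not overlap with the others, and ONC and TPEN overlapped. The decrease was -0.44 in ONC/Ctrl (limma, standard error 0.06, adjusted p = 0.000504) and -0.43 in TPEN/Ctrl (0.000817). The 36 bases of Mir711 in its exons are 0.35% of its length. Col20a1 (chromosome 2, 180986535 to 181017540, plus strand) was at 11.2, 10.4 and 11.4 RPKM in Ctrl, 7.97, 8.78 and 8.74 in ONC and 9.06, 9.02 and 8.85 in TPEN. Again every Ctrl library was above the other 6. It fell by 0.37 in ONC/Ctrl (limma adjusted p = 0.00150) and by 0.29 in TPEN/Ctrl (0.00841), and 1.88% of its exon length is shared with the listed gene 9230112E08Rik on the same strand. Rod markers summed to 19835 to 20676 RPKM in Ctrl, 17505 to 17710 in ONC and 18718 to 18829 in TPEN. Of the 9, 7 fell and 1 (Sag) rose in ONC/Ctrl, none by 1.5-fold, where 6.97% of all genes fell and 11.7% rose. The part of rods in the changes of Col7a1 and Col20a1 was not tested.

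The 250 bases before the start of Col7a1 (chr9:108953336-108953585, plus strand, GRCm38.p6, RefSeq) are shown as those of the collagen with the highest level: they held a single GC box (GGGCGG, in capitals), 61 bases before the start (position -61), and were 56.4% G or C.
Col7a1: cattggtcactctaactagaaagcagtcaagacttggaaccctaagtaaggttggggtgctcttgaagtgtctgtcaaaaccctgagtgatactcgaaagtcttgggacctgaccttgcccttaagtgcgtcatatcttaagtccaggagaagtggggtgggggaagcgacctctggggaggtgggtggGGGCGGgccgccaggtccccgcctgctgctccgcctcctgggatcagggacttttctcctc

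The remaining fibrillar collagens tested were the chains of collagen V, which sets the width of collagen I fibrils. Col5a3 was at 1.98, 1.98 and 1.87 RPKM in Ctrl, 2.498, 2.44 and 2.41 in ONC and 2.16, 2.01 and 2.17 in TPEN. It was highest in ONC, with no overlap. Col5a3 rose by 0.32 in ONC/Ctrl (limma adjusted p = 0.0194), a call lost without Ctrl replicate 3 or ONC replicate 1 or 2 (up to 0.0658). Col5a1, at 0.698 ± 0.112 RPKM in Ctrl, 0.492 ± 0.0367 in ONC and 0.830 ± 0.191 in TPEN (SD, n = 3), was on the other side with -0.42 in ONC/Ctrl and 0.63 in TPEN/ONC, but did not pass (limma adjusted p = 0.135 and 0.0640). By voom on the recovered reads, Col5a1 and Col4a5 also rose in TPEN/ONC by at least 1.5-fold. Col23a1, a collagen anchored in the cell membrane, was at 5.42, 5.47 and 5.71 RPKM in Ctrl, 5.14, 4.86 and 5.06 in ONC and 4.77, 4.95 and 3.92 in TPEN. Ctrl did not overlap with the others, but the TPEN/Ctrl change of -0.28 missed the threshold (limma adjusted p = 0.0592). Col18a1, the source of endostatin, was at 2.45, 2.27 and 2.36 RPKM in Ctrl, 2.28, 2.10 and 1.86 in ONC and 2.34, 1.99 and 2.46 in TPEN, and the groups overlapped. For Col18a1, Col19a1 and Col26a1, the limma adjusted p was between 0.296 and 0.968 in every comparison.

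**Figure D4:**
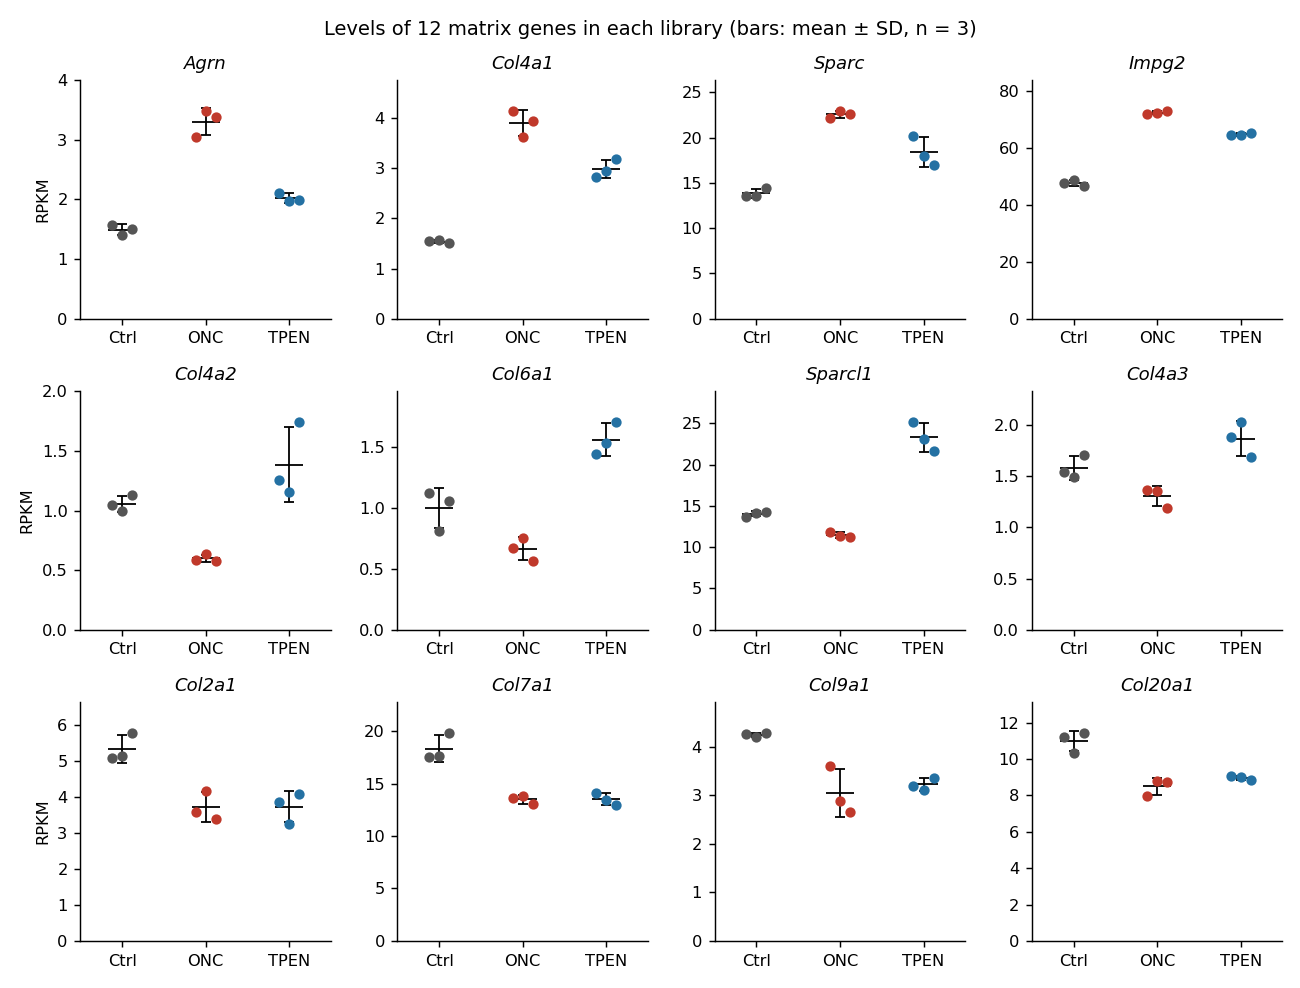
Level in RPKM of 12 matrix genes that changed in at least 1 comparison, in each library (points), with the mean and SD of each group (n = 3) and each axis from 0. The top row is highest in ONC, the middle row is lowest in ONC and highest in TPEN, and in the bottom row Ctrl is highest and ONC and TPEN lie near each other.

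Sparc and Sparcl1 moved in opposite directions after the crush and again between TPEN and ONC, while both rose in TPEN/Ctrl. SPARC binds collagen and is known to oppose the synapse-forming action of its relative SPARCL1 (hevin), and both are made by astrocytes and Müller glia. Sparc (chromosome 11, 55394500 to 55423183, minus strand) was at 13.5, 13.6 and 14.4 RPKM in Ctrl, 22.2, 22.9 and 22.6 in ONC and 20.2, 17.9 and 17.01 in TPEN. ONC was highest, TPEN lay between, and there was no overlap. Sparc rose by 0.70 in ONC/Ctrl (limma, standard error 0.06, adjusted p = 3.73e-05) and by 0.40 in TPEN/Ctrl (0.00194). The TPEN/ONC decrease of 0.30 (limma adjusted p = 0.0177) was lost without any 1 of the ONC libraries or without TPEN replicate 2 or 3 (up to 0.0666).

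Sparcl1 (chromosome 5, 104079111 to 104113733, minus strand) was at 13.7, 14.2 and 14.2 RPKM in Ctrl, 11.9, 11.4 and 11.2 in ONC and 25.2, 23.1 and 21.6 in TPEN. TPEN stood well above both other groups and ONC was lowest. It fell by 0.29 in ONC/Ctrl (limma adjusted p = 0.00512) and rose by 1.02 in TPEN/ONC (limma, standard error 0.06, adjusted p = 8.69e-06), or 2.03-fold in the mean level, and by 0.72 in TPEN/Ctrl (2.77e-05). The Sparc to Sparcl1 ratio within a library was therefore 0.986 ± 0.0276 in Ctrl, 1.97 ± 0.0886 in ONC and 0.788 ± 0.0146 in TPEN (SD, n = 3). The 12 Müller glia markers summed to 606 to 620 RPKM in Ctrl, 683 to 694 in ONC and 554 to 564 in TPEN, and none was at 0 in all libraries. Within this sum, Apoe had means of 172, 268 and 178 RPKM in Ctrl, ONC and TPEN, and Glul had means of 173, 116 and 103 RPKM. Of the 12, 3 rose in ONC/Ctrl (Apoe, Clu and Vim) and 4 fell (Rlbp1, Glul, Aqp4 and Car14), with a median change of -0.06. Of all genes, 11.7% rose and 6.97% fell there. In TPEN/ONC, 2 of the 12 rose (Aqp4 and Sox9) and 4 fell (Rlbp1, Glul, Apoe and Vim), beside 3.24% and 4.14% of all genes. The summed level of the 8 cone markers, all listed, was ordered like Sparcl1, Col6a1 and Col4a2, at 136 to 144 RPKM in Ctrl, 121 to 129 in ONC and 211 to 215 in TPEN. Of the 8, 4 fell and 1 (Gngt2) rose in ONC/Ctrl, where 6.97% of all genes fell and 11.7% rose. In TPEN/ONC 7 of the 8 rose, beside 3.24% of all genes. The part of these cells in the changes was not tested.

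The proteoglycans of the interphotoreceptor matrix differed in their response. Impg2 (chromosome 16, 56204313 to 56273756, plus strand), a membrane-bound proteoglycan, was at 47.6, 48.7 and 46.7 RPKM in Ctrl, 71.9, 72.5 and 73.1 in ONC and 64.5, 64.6 and 65.4 in TPEN. The groups were well apart, with 8693 to 10429 reads in Ctrl and 15320 to 15563 in ONC. It rose by 0.60 in ONC/Ctrl (limma, standard error 0.03, adjusted p = 3.15e-07), fell by 0.16 in TPEN/ONC (0.00614) and was 0.44 above Ctrl in TPEN (4.72e-06). Impg1 (chromosome 9, 80313330 to 80465481, minus strand), the secreted partner, was at 168, 176 and 169 RPKM in Ctrl, 169, 167 and 165 in ONC and 178, 180 and 181 in TPEN. Ctrl and ONC overlapped (-0.03, limma adjusted p = 0.399), and TPEN was highest by a small margin. Its rise of 0.11 in TPEN/ONC (limma adjusted p = 0.0376) was lost without any 1 of the ONC or TPEN libraries (up to 0.121). The Impg1 to Impg2 ratio was 3.59 ± 0.0594 in Ctrl, 2.30 ± 0.0497 in ONC and 2.77 ± 0.0156 in TPEN (SD, n = 3). Rod markers, from cells this matrix surrounds, summed to 19835 to 20676 RPKM in Ctrl, 17505 to 17710 in ONC and 18718 to 18829 in TPEN. Of the 9, 7 fell and 1 (Sag) rose in ONC/Ctrl, where 6.97% of all genes fell and 11.7% rose. The part of rods in the changes of Impg1 and Impg2 was not tested.

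The 250 bases before the start of Impg2 (chr16:56204063-56204312, plus strand, GRCm38.p6, RefSeq) held no GC box and were 46.8% G or C; the capitals mark the 1 match to the AP-1 type motif TGANTCA, at position -159, a motif found in 7.8% of all promoter windows and 5.6% of those of the members.
Impg2: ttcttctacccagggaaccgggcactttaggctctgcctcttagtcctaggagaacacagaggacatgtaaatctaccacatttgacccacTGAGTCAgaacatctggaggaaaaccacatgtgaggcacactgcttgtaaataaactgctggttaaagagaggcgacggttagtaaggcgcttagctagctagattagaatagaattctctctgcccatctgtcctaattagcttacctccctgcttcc

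**Figure D5:**
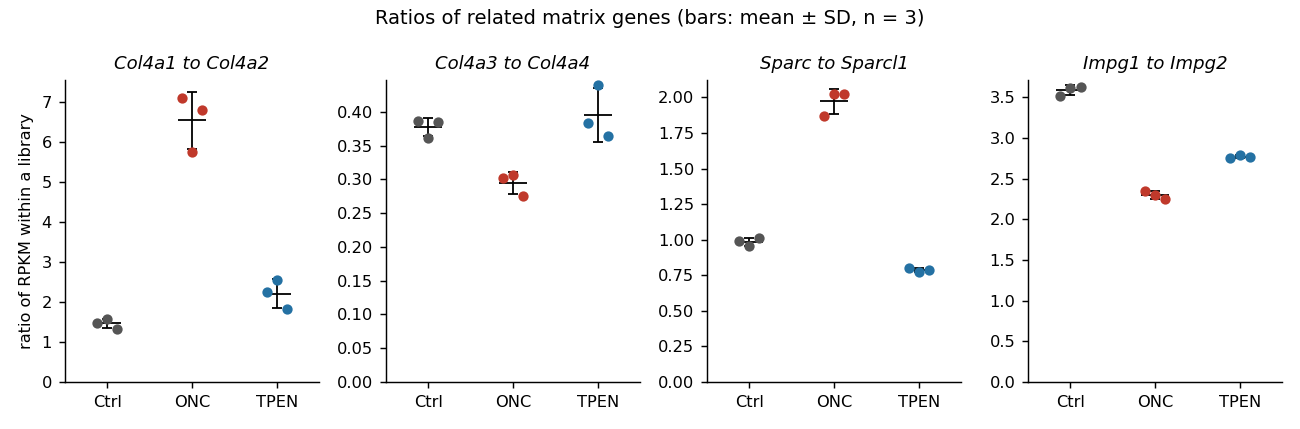
Ratio of the RPKM levels of 4 pairs of related matrix genes within each library (points) with the mean and SD of each group (n = 3), axes from 0. The Col4a1 to Col4a2 and Sparc to Sparcl1 ratios are highest in ONC (6.54 and 1.97), and the Impg1 to Impg2 ratio is highest in Ctrl (3.59).

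The matrix of nerve tissue itself was hardly represented. Of the lecticans and tenascins, Ncan and Tnr were listed, both below the filter. Tnr, which links lecticans in perineuronal nets, was at 0.350, 0.249 and 0.399 RPKM in Ctrl, 0.352, 0.464 and 0.365 in ONC and 0.334, 0.518 and 0.257 in TPEN, and the groups overlapped. Ncan had 8 to 38 reads in a library. Of the remaining low members, Col15a1, a basement membrane zone collagen of vessels and muscle, had 4 to 12 reads in Ctrl, 21 to 42 in ONC and 8 to 14 in TPEN. ONC did not overlap with the others. It exceeded 1 RPM in 2 libraries, both ONC, so it is in the deposited table only through the group where it was high, and no test is given. Col17a1, just below the filter at a mean of 0.4996 RPKM, was at 0.402, 0.480 and 0.605 RPKM in Ctrl, 0.483, 0.393 and 0.302 in ONC and 0.573, 0.632 and 0.626 in TPEN, without a change that passed (limma adjusted p of 0.107 to 0.390). Col27a1, the fibrillar collagen nearest below the filter, was at 0.455 to 0.545 RPKM in every library, and Col12a1, Col16a1 and Col22a1 overlapped between all groups. Vessel cells, a known source of collagen IV and laminins, could be followed only in part, since 4 of 11 endothelial markers were listed (summed level 14.0 to 15.1 RPKM in Ctrl, 16.5 to 17.3 in ONC and 17.6 to 18.2 in TPEN) and 4 of 10 pericyte markers. Most of the endothelial sum came from Kdr, at means of 10.7, 12.5 and 14.1 RPKM in Ctrl, ONC and TPEN. Kdr rose by 0.23 in ONC/Ctrl (limma adjusted p = 0.00759) and by 0.40 in TPEN/Ctrl (0.000487), with 0.16 in TPEN/ONC (0.0711). Pecam1, Flt1 and Plvap did not pass in any comparison. The listed pericyte markers summed to 1.85 to 2.30 RPKM in Ctrl, 1.72 to 2.11 in ONC and 1.89 to 2.06 in TPEN.

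Some of the genes that make, process and cut matrix also changed. Of 28 enzymes and chaperones on a list of collagen synthesis, 17 were tested, and 4 (Bmp1, Loxl2, P3h3 and P4hb) rose and 1 (P4ha1) fell in ONC/Ctrl, where 11.7% of all genes rose and 6.97% fell. Bmp1, which cleaves procollagen ends, had means of 0.586, 1.46 and 1.07 RPKM in Ctrl, ONC and TPEN and rose by 1.19 in ONC/Ctrl (limma adjusted p = 0.000725). Loxl2, a crosslinking oxidase of collagen IV, rose by 0.69 in ONC/Ctrl (0.0125), and P4ha1, a prolyl hydroxylase subunit, fell by 0.44 (0.00218). Of the proteases and inhibitors of matrix, 10 of 34 were tested and 5 rose in ONC/Ctrl (Adamts1, Adamts5, Mmp2, Plat and Timp2) and 2 in TPEN/ONC (Adamts1 and Plat), beside 11.7% and 3.24% of all genes. Plat, at means of 0.235, 0.507 and 0.943 RPKM in Ctrl, ONC and TPEN, lay near the filter, and its high TPEN level helped it pass. Adamts1, a protease of lecticans, had means of 4.55, 7.70 and 9.86 RPKM in Ctrl, ONC and TPEN and rose by 0.75 in ONC/Ctrl (limma adjusted p = 1.08e-05) and by 0.35 in TPEN/ONC (0.00479). Of 37 other matrix proteins, 13 were tested. Efemp2 was among those that rose in ONC/Ctrl (11.7% of all genes rose), and Spock2 fell (6.97% of all genes fell). Thbs1 had means of 0.0344, 1.33 and 0.157 RPKM in Ctrl, ONC and TPEN, and Tgfbi 0.0467, 4.42 and 0.434. Both passed the filter only through ONC, the group where they were high, so no test is given for them. Fn1, fibronectin, rose by 2.73 in ONC/Ctrl (limma adjusted p = 5.33e-07) and fell by 1.78 in TPEN/ONC (4.26e-05), both larger changes than those of any collagen or laminin tested.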

How the data were processed

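RNA of 9 libraries, 3 each of Ctrl, ONC and TPEN cells, was sequenced from stranded mRNA libraries. Per the labels, reads were trimmed with Trimmomatic 0.36 and mapped to GRCm38 (mm10); the aligner's and counter's settings, the use of strand and the handling of molecular identifiers are not given in the sources used here. The authors deposited RPKM values for 15228 genes, with exon lengths and coordinates, and columns of their own comparisons (log2 fold changes, p-values and false discovery rates), which were not used. Multiplied by exon length, 100% of the RPKM values were whole multiples of 1 step per library within 0.01 reads, which gave reads and totals.

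Changes were tested with limma 3.58.1 (R 4.3.3, variance trend on the mean) on log2(RPKM + 0.1) for genes averaging 0.5 RPKM or more, in 1 fit of all 9 libraries, with Benjamini-Hochberg adjustment over 13566 genes. The fit was tested on simulated data. Alternatives were voom on the recovered reads, 1 RPKM added, no filter, a mean of at least 1 RPKM, quantile normalization, removal of a length trend, only the 6 libraries compared, a replicate block, and leaving out each library. Promoter windows came from RefSeq (GRCm38.p6). Named with values in every library were members with an adjusted p under 0.05 in any comparison and the member of each structural class with the highest mean; others named, such as Lama1, Col5a1 and Col17a1, were chosen after their values were seen. The members and lists were chosen with earlier results of these data known. Some results of the list of other matrix proteins are not reported here.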

Additional observations from a re-analysis of the deposited data

How the results depend on the processing

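Of 32 calls of single members (adjusted p under 0.05), 22 passed under every alternative and none of the 32 changed sign under any; 10 of 256 values were no longer past the threshold under the other 8 alternatives, and 46 of 288 when 1 library was left out. With voom, no filter, a mean of at least 1 RPKM or the length trend removed, no call was lost. Lost were Col6a1 in ONC/Ctrl with 1 RPKM added and with the 6 libraries compared, Col4a3 in TPEN/ONC with the 6 libraries compared, and Col6a1 in TPEN/Ctrl after quantile normalization. The members called at 1.5-fold moved as follows. Lower in ONC/Ctrl was 1 member, against 0 with 1 RPKM added, 3 after quantile normalization, 8 by adjusted p alone and 1 to 3 without 1 library (2 without Ctrl replicate 2 or ONC replicate 1, 3 without ONC replicate 2). Higher in TPEN/ONC were 3, against 5 with voom and 5 by adjusted p alone. Lower in TPEN/ONC was 1, against 0 with 1 RPKM added and 4 by adjusted p alone. Higher in TPEN/Ctrl were 3, against 6 by adjusted p alone, and lower were 0 against 4 by adjusted p alone. Without the filter, Lama1 was also called higher in TPEN/Ctrl, with Col6a2 left aside since it is in the table only through TPEN. The causes were not tested. The replicate numbers were not taken as pairs, since deviations from group means of libraries with the same number correlated at -0.0623 to 0.0268 and those with different numbers at -0.0375 to 0.0511; with a replicate block, 6 single calls were lost and the count of members higher in TPEN/Ctrl was 2. Over all genes, 622 rose and 102 fell at 1.5-fold in ONC/Ctrl, against 530 and 193 after quantile normalization, 426 and 31 with 1 RPKM added and 943 and 129 without the filter. In TPEN/ONC, 111 and 164 became 39 and 112 with 1 RPKM added, 151 and 281 without the filter and 86 and 105 at a mean of at least 1 RPKM. In TPEN/Ctrl, 468 and 62 became 247 and 34 with 1 RPKM added, and 389 and 102 after quantile normalization. The fewest reads of a member in a library were 4, so counting error is largest for such members.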

Other observations

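Receptors and signals of matrix outside the members were looked up from lists chosen with earlier results known. Of 19 matrix receptors other than integrins, 11 were tested, and 2 rose (Cd44 and Sgcb) and 2 fell (Ptprf and Sdc4) in ONC/Ctrl, where 11.7% of all genes rose and 6.97% fell. Cd44, the hyaluronan receptor, was at 0.331 ± 0.0832 RPKM in Ctrl, 1.22 ± 0.210 in ONC and 1.23 ± 0.158 in TPEN (SD, n = 3), a rise of 1.62 in ONC/Ctrl (limma adjusted p = 0.000285) with 0.02 in TPEN/ONC (0.969). Ptprf, a receptor phosphatase that binds proteoglycans, was at 3.52 ± 0.165, 2.80 ± 0.301 and 4.75 ± 0.200 RPKM in the same order, and it fell by 0.32 in ONC/Ctrl (limma adjusted p = 0.0303) and rose by 0.74 in TPEN/ONC (0.00114). Dag1, the dystroglycan that binds agrin, laminins and perlecan, did not pass, at 3.88 ± 0.120, 3.81 ± 0.235 and 3.78 ± 0.387 RPKM. Of 16 symbols of TGF-beta ligands, receptors and targets, which held Cyr61 and Ctgf also under their other names Ccn1 and Ccn2, 8 were tested. Of the 8, 1, Cyr61, fell in ONC/Ctrl (by 0.95, limma adjusted p = 0.0171). Tgfb2, the main TGF-beta of the retina, had a change of 0.34 in that comparison (limma adjusted p = 0.0533). In TPEN/Ctrl, Tgfb2 and Smad7 rose by 0.38 and 0.41 (limma adjusted p = 0.0419 and 0.0252), where 8.36% of all genes rose.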
